A study of Mus musculus with 4 samples.

Results

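The genes described here were nearly silent in bone marrow leukaemia stem cells labelled WT and clearly present as RNA in those labelled KO for Rreb1, a zinc finger transcription factor. Of the 16442 genes in the deposited table, 89 were chosen by 2 thresholds on input RNA. Each had a value of RPKM + 1 below 2 in both WT libraries and of at least 6 in both KO libraries, where RPKM scales reads by gene length and by the library's assigned reads. In RPKM this means under 1 in WT and at least 5 in KO. In all, 95 genes met the thresholds. Cpa3, Epx, Prg3 and Prss34, which are granule genes of mast cells, basophils and eosinophils, and the Y-linked Ddx3y and Gm4017 were left out. Gata2, Prg2 and Bcat1 would also have been left out but did not meet the thresholds. With the thresholds turned round, 42 genes had RNA in WT and almost none in KO.

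Ribosome footprints and input RNA were measured in C57BL/6 mouse leukaemia stem cells taken from bone marrow, with 2 libraries labelled WT and 2 labelled KO. The genotype field reads WT for the first group and Rreb1-KO for KO replicate 1. For KO replicate 2 it reads Rreb2-KO, and its title put it in the KO group. The series names the replicates biological. How the leukaemia was induced, how Rreb1 was removed, in which cells, and which and how many animals gave each library are not given in the sources used here. The measured spread is that between 2 libraries per group.

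A transcript that ribosomes are reading protects short stretches of itself from nuclease, so footprints over a coding sequence show that it was engaged by ribosomes, while input RNA shows how much transcript was present. Translational efficiency (TE) is the footprint value divided by the input value. Leukaemia stem cells are the fraction of leukaemic cells that can propagate the disease, and myeloid ones usually share programmes with normal progenitors. RREB1 binds Ras-responsive elements and is known both as an activator and as a repressor.

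The footprint libraries were shallow, with 656249 to 878068 assigned reads in WT and 274183 to 364087 in KO, against input libraries of 17037493 to 19121998 reads. One read in a coding sequence of 1 kilobase was worth 1.14 RPKM in WT replicate 1 and 3.65 RPKM in KO replicate 2, so single footprint reads look larger in KO. Rreb1 itself had RNA of 3.33 and 3.25 RPKM in WT and 6.10 and 6.93 RPKM in KO, and footprints of 14.1, 12.8, 12.9 and 8.19 RPKM in the same order. RNA was thus higher in the KO libraries and the footprints of the groups overlapped, and a value for the whole gene does not check a deletion of part of it. Among Y-linked genes, Ddx3y had RNA of 0.0805 and 0.0847 RPKM in WT against 11.9 and 13.6 RPKM in KO and Uty 0.0107 and 0.0281 RPKM against 3.57 and 3.18 RPKM, while Eif2s3y lay between 21.5 and 26.3 RPKM in all 4 libraries. What this difference between the groups has to do with the 89 genes was not tested.

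Promoter sequences are shown for genes on which the results below turn. They are Clec2m, Rnase12 and Frzb, the members with the largest footprint differences for which a promoter was at hand, and Ifit1 and Ifit3, interferon-induced genes that lie close to each other. Each runs 5′ to 3′ along the gene from 250 bases before to 50 bases after the annotated start, from RefSeq on build GRCm38.p6. Capitals mark matches to GAAANNGAA, the core of the interferon-stimulated response element, on either strand, where the reverse strand reads TTCNNTTTC.
Clec2m, chr6:129331732-129332031, minus strand: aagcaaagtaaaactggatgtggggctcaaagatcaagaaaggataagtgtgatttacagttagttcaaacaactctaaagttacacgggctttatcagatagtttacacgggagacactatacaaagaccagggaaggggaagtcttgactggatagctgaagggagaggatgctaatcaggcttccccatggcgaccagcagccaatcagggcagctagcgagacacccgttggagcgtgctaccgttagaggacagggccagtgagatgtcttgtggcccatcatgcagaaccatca
Rnase12, chr14:51057193-51057492, minus strand: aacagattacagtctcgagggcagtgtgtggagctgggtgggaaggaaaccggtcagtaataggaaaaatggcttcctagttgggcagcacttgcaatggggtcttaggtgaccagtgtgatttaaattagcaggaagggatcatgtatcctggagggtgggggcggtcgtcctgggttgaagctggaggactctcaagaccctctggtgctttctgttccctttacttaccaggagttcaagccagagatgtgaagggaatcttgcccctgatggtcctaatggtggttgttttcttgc
Frzb, chr2:80447347-80447646, minus strand: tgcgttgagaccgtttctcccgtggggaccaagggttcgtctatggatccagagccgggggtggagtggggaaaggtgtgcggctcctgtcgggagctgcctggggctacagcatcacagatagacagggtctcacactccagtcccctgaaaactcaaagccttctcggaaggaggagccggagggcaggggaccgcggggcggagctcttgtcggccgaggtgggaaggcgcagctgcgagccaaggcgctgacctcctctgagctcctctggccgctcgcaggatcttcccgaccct
Ifit1, chr19:34640639-34640938, plus strand: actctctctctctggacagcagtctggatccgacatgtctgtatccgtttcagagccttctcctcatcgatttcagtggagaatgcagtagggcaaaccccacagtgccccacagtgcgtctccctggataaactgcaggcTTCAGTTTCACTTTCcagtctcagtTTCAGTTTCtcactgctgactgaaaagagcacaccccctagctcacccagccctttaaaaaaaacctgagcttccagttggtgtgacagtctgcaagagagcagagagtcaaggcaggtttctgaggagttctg
Ifit3, chr19:34583279-34583578, plus strand: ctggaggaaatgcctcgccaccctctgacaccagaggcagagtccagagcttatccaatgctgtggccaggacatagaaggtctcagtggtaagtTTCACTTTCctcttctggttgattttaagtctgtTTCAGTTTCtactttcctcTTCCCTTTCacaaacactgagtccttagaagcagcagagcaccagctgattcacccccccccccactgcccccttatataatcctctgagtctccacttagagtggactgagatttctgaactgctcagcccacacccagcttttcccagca
Ifit1 and Ifit3 each held 3 matches, some of them overlapping, and the other 3 promoters held none. Over the members, 59 genes had 74 promoters in the RefSeq table, and 12 of the 74 (16.2%) held the core, against 8.56% of all 32851 promoters of the same 300 bases. The core was present for 4 of the 7 members known to respond to interferon or belonging to MHC class I, namely Ifit1, Ifit3, Rsad2 and Tgtp2. The GATA core AGATAA was found in 10.8% of the member promoters against 11.2% of all. The letters AAACCACC, a core of the published RREB1 motif, were in 1 of the 74 (1.35%), that of Tgtp2, against 1.06% of all, and TATAAA was in 9.46% against 13.6%. The motifs were searched on both strands and can overlap one another. A match is a description of letters and not of a bound site.

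The RNA values that chose the genes were close between KO replicate 1 and KO replicate 2, while those in WT lay near the floor. Over the 89 genes, the median RNA of the libraries was 0.201 and 0.231 RPKM for WT and 9.87 and 9.60 RPKM for KO. The ratio of KO replicate 1 to KO replicate 2 had a median of 1.04 and ran from 0.614 to 1.52. A fit with limma, a linear model with shared variances, to log2(RPKM + 1) over 12194 genes called 3929 genes higher in KO, a background of 32.2%, and 2568 lower (21.1%). All 89 were among them, which the choice of the genes required. Their median log2 difference was 3.14, with a range of 1.83 to 8.11, against 0.103 for all genes fitted. Few members were strictly absent from WT. RNA was present in both WT libraries for 68 of the 89, and 7 were at 0 in both. These 7 were Bhlhb9, Gm12341, Ighv1-23, Ighv1-30, Nrgn, Ppp1r14c and Tmem215. Most members were modest in KO too, since 69 of the 89 (77.5%) had a KO mean under 15 RPKM and 6 had one of at least 50 RPKM. In bulk RNA, fewer cells that express a gene and less RNA per cell cannot be told apart.

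**Figure D1:**
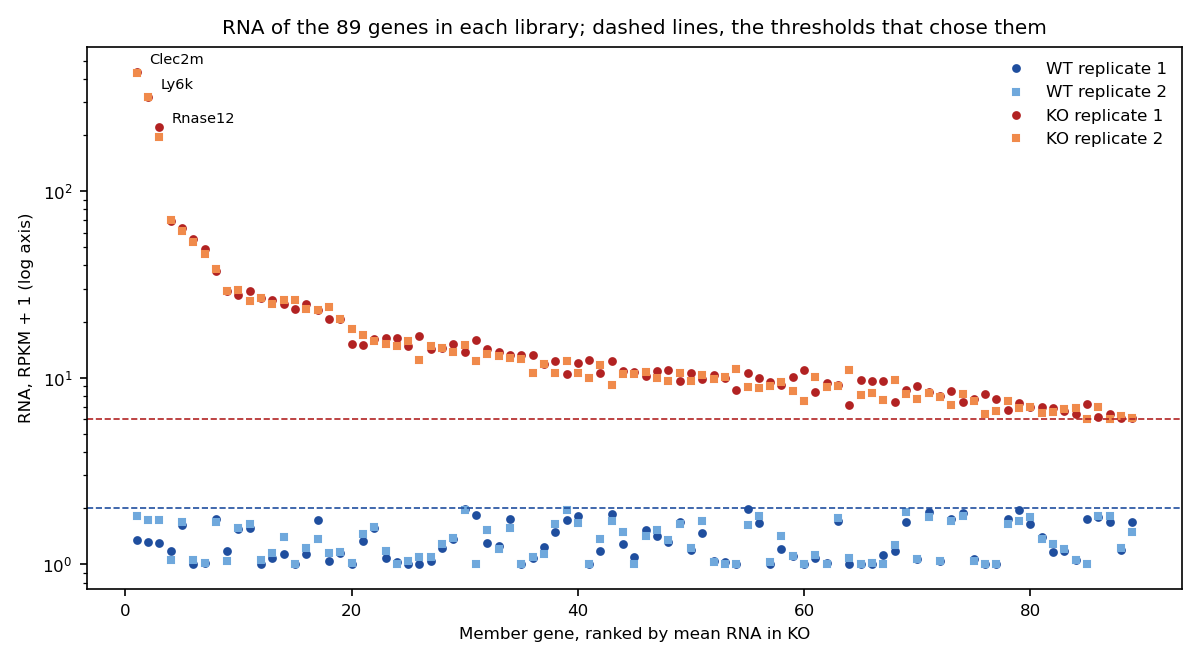
RNA (RPKM + 1, log axis) of each of the 89 genes in each of the 4 libraries, ranked by the mean of the KO libraries, with the thresholds of 2 and 6 as dashed lines. Clec2m, Ly6k and Rnase12 stand above the rest, and the 2 KO libraries lie close together for nearly every gene.

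Genes just inside and just outside the thresholds had similar values. Pbx3, at 0.976 and 0.964 RPKM in WT and 12.7 and 14.0 RPKM in KO, was a member, and Siglecg, an inhibitory lectin of B cells, at 0.979 and 1.02 RPKM in WT and 36.5 and 38.0 RPKM in KO, was not. At the KO threshold, C030034L19Rik entered with 5.39 and 5.02 RPKM. H1f10, a linker histone, had 0.172 and 0.181 RPKM in WT, and with 4.95 and 6.41 RPKM in KO it stayed outside.

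The products of the members were of many kinds. RefSeq names 71 of them protein-coding genes, 8 long non-coding RNAs, 2 pseudogenes, 1 microRNA, 1 small nucleolar RNA, 1 immunoglobulin V segment and 1 V segment pseudogene, and 4 symbols had no match. Sorted by known function after the members were found, there were 13 secreted or matrix proteins, 17 surface receptors or membrane proteins, 6 transcription factors or chromatin proteins, 16 neuronal, signalling or cytoskeletal proteins, 6 proteins of metabolism or protein folding, 7 interferon-responsive or MHC class I genes and 5 genes of an X-linked cluster. The rest were V segments, non-coding genes and a pair of others.

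Footprints were found for most coding members in KO. Of the 71, 60 had footprint reads in both KO libraries, 7 in 1 of them and 4 in neither. In WT, 26 had no read in either library, and 19 of those 26 had reads in both KO libraries. Summed over the coding members, 125 and 136 reads in WT replicates 1 and 2 stood against 1194 and 1080 reads in KO replicates 1 and 2. These sums were 0.0142% and 0.0207% of the assigned reads in WT and 0.328% and 0.394% in KO. Both KO libraries lay above both WT libraries for 55 of the 68 coding members with any footprint value, where 18.1% of the 11040 coding genes with a footprint value did. Footprints share their libraries and contrast with the RNA that chose the genes, so this count is a description.

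The footprint fit could judge only part of the members. It covered 6390 genes with at least 20 footprint CPM (reads scaled to library depth) in at least 2 libraries, of which limma called 38 higher in KO (0.595%) and 30 lower, at a Benjamini-Hochberg adjusted p under 0.05. It held 27 of the 89 members, and 25 of these had under 20 CPM in both WT libraries, so they entered through KO alone and had to differ. Of the 27, 15 were called higher and 0 lower. Among the 15 were Akap12, Clec2m, Clgn, Col19a1, Colq, Epha7, Faim2, Frzb, Gprasp2, Nedd4, Rnase12, Serpinf1, Susd5 and Syt11. The median log2 footprint difference of the 27 was 4.50, against -0.134 for all genes fitted, and over all 71 coding members it was 3.52. The calls depend on the setting. Of the 15, the fit kept 7 with a filter of 10 CPM, where 8 members were called, and 0 without a filter. Without WT replicate 1 limma called 0 genes, with 395 at an unadjusted p under 0.05, and without WT replicate 2 it called 0, with 420, while without KO replicate 1 it called 22 members among 135 genes and without KO replicate 2 it called 25 members among 458 genes.

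**Figure D2:**
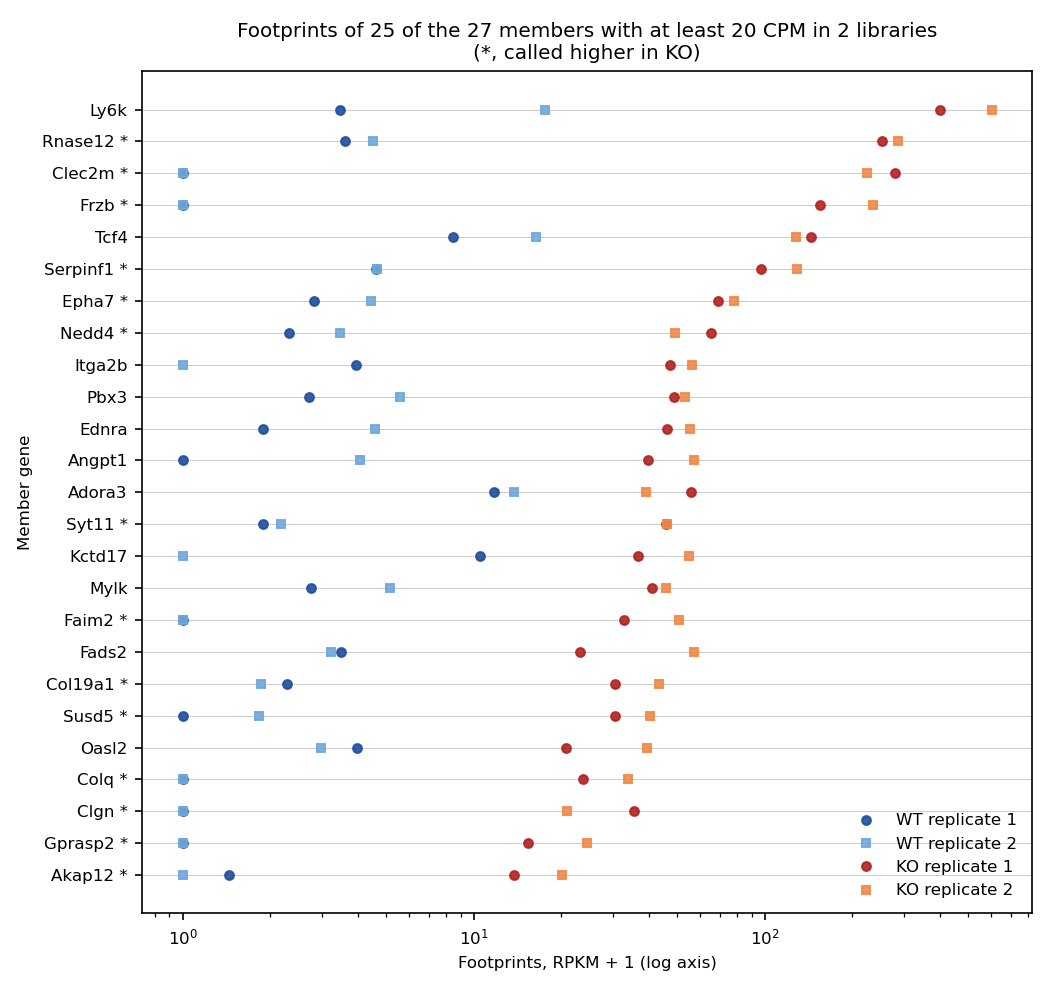
Footprints (RPKM + 1, log axis) in each library for 25 of the 27 members that entered the footprint fit, with the 14 of these that limma called higher in KO marked by asterisks. The 2 KO libraries lie to the right of both WT libraries for each of these genes. Of the 27 members fitted, 25 passed the filter through KO alone, which fixed this order for them.

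Among secreted and matrix proteins, 12 of 13 had footprint reads in both KO libraries. Rnase12, a member of the RNase A family known from the male reproductive tract, had RNA of 0.311 and 0.736 RPKM in WT and 220 and 195 RPKM in KO. Ribosome footprints measured 2.62 and 3.50 RPKM in WT and 253 and 285 RPKM in KO, a log2 difference of 6.06 ± 0.32 (SE). The neighbouring Rnase10, of the same family, had RNA of 0.722 and 0.364 RPKM in WT and 22.1 RPKM in each KO library. In footprints it had 1.55 and 0 RPKM in WT and 22.4 and 44.7 RPKM in KO. The footprint groups of Rnase10 and Rnase12 did not overlap, and in RNA the thresholds required this. Rnase11, the only gene of the table between them on the chromosome, had a KO mean of 1.56 RPKM of RNA.

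Frzb, a secreted protein that binds Wnt ligands and keeps them from their receptors, had RNA of 0.0162 and 0.0170 RPKM in WT and 47.9 and 45.1 RPKM in KO. It had no footprint read in WT and 54 and 62 reads in KO, or 153 and 233 RPKM. Against a floor of 3 reads over the WT group, the footprint share was at least 92.9-fold higher in KO. Serpinf1, which encodes the anti-angiogenic factor PEDF, had footprints of 3.63 and 3.64 RPKM in WT and 96.2 and 128 RPKM in KO. Footprints of the collagen gene Col19a1 were 1.29 and 0.861 RPKM in WT and 29.5 and 42.3 RPKM in KO. Colq, the collagen-like tail of acetylcholinesterase, had no footprint read in WT and 12 and 13 reads in KO. Frzb, Serpinf1, Col19a1 and Colq were all called higher. None of their groups overlapped, which their entry into the fit through KO alone required.

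Other secreted proteins had clear values without a call. Angpt1, the ligand of the receptor Tie2 and a known product of haematopoietic progenitors, had footprints of 0 and 3.06 RPKM in WT and 38.6 and 56.1 RPKM in KO. Klk8, a secreted serine protease, had RNA of 0.747 and 0.679 RPKM in WT and 36.2 and 37.2 RPKM in KO, with 0 footprint reads in WT and 7 and 10 in KO. Pdgfrl, a secreted protein related to the PDGF receptors, had 0 footprint reads in WT and 5 and 4 in KO. In footprints all of these were higher in KO than in WT in each library. For Angpt1 its entry into the fit through KO alone required this, and Klk8 and Pdgfrl were too low to enter the fit.

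Rbp4, the carrier of retinol in blood, had high RNA in KO and few footprints. Its RNA was the fifth highest of the members, at 0.623 and 0.697 RPKM in WT and 62.6 and 60.4 RPKM in KO. Its footprint reads were 1 and 10 in WT and 1 in each KO library, and the ratio of KO to WT shares was 0.437, with a 95% interval of 0.0471 to 2.0 that covers counting error only. This direction rests on WT replicate 2. The log2 footprint difference was -0.49, and it was 1.06 without that library and -2.03 without WT replicate 1. Emid1, a matrix protein with an EMI domain, also had few footprints in KO, 2 and 1 reads, beside RNA of 14.1 and 12.8 RPKM. Qrfp, the precursor of a neuropeptide, had no footprint read in any library at RNA of 5.43 and 5.88 RPKM in KO.

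The highest RNA of all belonged to surface proteins. Clec2m, a C-type lectin of the natural killer gene complex, had RNA of 0.347 and 0.822 RPKM in WT and 436 and 430 RPKM in KO, a log2 difference of 8.11 ± 0.15 (SE). It had no footprint read in WT and 58 and 35 reads in KO, or 279 and 223 RPKM, and the share was at least 74.5-fold higher in KO. Ly6k, a GPI-anchored protein of the Ly6 family known from testis and some tumours, had RNA of 0.315 and 0.731 RPKM in WT and 321 and 318 RPKM in KO. Footprint values were 2.47 and 16.5 RPKM in WT and 398 and 600 RPKM in KO. Although its groups lay far apart, the WT libraries differed from each other and Ly6k was not called, with a log2 footprint difference of 5.98 ± 0.83 (SE).

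Receptors followed at lower levels. Epha7, a receptor tyrosine kinase for ephrins, had RNA of 25.0 and 23.8 RPKM in KO and footprints of 1.83 and 3.43 RPKM in WT against 68.1 and 77.5 RPKM in KO. Susd5, a membrane protein with a sushi domain, had 0 and 1 footprint reads in WT and 20 in each KO library. Both were called higher. Itga2b, the integrin subunit CD41 of platelets and early progenitors, had footprints of 2.94 and 0 RPKM in WT and 46.1 and 55.3 RPKM in KO. Ednra, the endothelin A receptor, had 0.889 and 3.57 RPKM in WT and 45.0 and 54.1 RPKM in KO. The adenosine receptor Adora3 had 10.7 and 12.7 RPKM in WT and 54.5 and 38.1 RPKM in KO, the smallest footprint difference among the 27 members fitted, at 1.88 ± 0.36 (SE). The groups of Itga2b, Ednra and Adora3 did not overlap, which their entry into the fit through KO alone required, and none of these genes was called. Reads were sparse for Klra1, a Ly49 receptor of natural killer cells, with 0 in WT and 2 and 3 in KO. Perp, a membrane protein induced by p53, had RNA of 23.8 and 22.3 RPKM in KO but 0 and 1 footprint reads there. Mansc4 had none in any library, and Nmur1, a neuromedin U receptor, had 1 read in WT replicate 1 and none in KO.

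All 6 transcription factors and chromatin proteins had footprint reads in both KO libraries. Tcf4, an E protein that pairs with other basic helix-loop-helix factors, had RNA of 0.554 and 0.561 RPKM in WT and 26.9 and 28.7 RPKM in KO. It had footprints of 7.51 and 15.4 RPKM in WT and 143 and 127 RPKM in KO. Pbx3, a homeodomain partner of HOX proteins, had footprints of 1.72 and 4.59 RPKM in WT and 47.6 and 52.2 RPKM in KO. Tcf4 and Pbx3 separated the groups but were not called. Pbx3 entered the fit through KO alone, which required its separation. Hnf4a, a nuclear receptor best known from liver and gut, had 0 footprint reads in WT and 3 and 10 in KO, and Foxd4, a forkhead factor, had 1 in each KO library.

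Genes best known from neurons or from signalling and the cytoskeleton formed the second largest group, and 15 of 16 had footprint reads in both KO libraries. Nedd4, a ubiquitin ligase, had RNA of 0.0498 and 0.0350 RPKM in WT and 9.30 and 8.82 RPKM in KO, and footprints of 1.32 and 2.47 RPKM in WT and 64.1 and 48.0 RPKM in KO. Syt11, a synaptotagmin of vesicle traffic, had 0.883 and 1.18 RPKM of footprints in WT and 44.7 and 45.2 RPKM in KO. Faim2, an inhibitor of Fas-induced death in neurons, had no footprint read in WT and 11 and 13 in KO. The kinase scaffold Akap12 had 2 and 0 reads in WT and 24 and 27 in KO. These 4 genes were called higher. Mylk, the myosin light chain kinase, had 1.75 and 4.17 RPKM of footprints in WT and 39.9 and 44.9 RPKM in KO without a call. Morn4 had 7 footprint reads in KO replicate 1 and none in KO replicate 2, and Camk2a, a calmodulin-dependent kinase, had footprints of 2.55 and 0.852 RPKM in WT and 1.54 and 12.2 RPKM in KO, so its groups overlapped. Reads of Cacnb1, a calcium channel subunit, cannot be told apart from those of Rpl19 where the genes overlap, and Rpl19 had RNA of 254 to 446 RPKM.

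Of the metabolic and folding proteins, Clgn, a chaperone of the endoplasmic reticulum known from testis, had no footprint read in WT and 23 and 10 in KO, and was called. Fads2, a fatty acid desaturase, had footprints of 2.50 and 2.23 RPKM in WT and 22.1 and 56.0 RPKM in KO. Ggt7, of the gamma-glutamyltransferase family, had RNA of 0 and 0.0506 RPKM in WT and 54.2 and 52.5 RPKM in KO. Its footprints in KO were low for that RNA, at 24.9 and 18.4 RPKM from 9 and 5 reads. Cpt1c, a neuronal relative of the carnitine palmitoyltransferases, had 10 and 4 footprint reads in KO and 0 and 1 in WT.

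The 7 interferon-responsive and MHC class I members had moderate RNA and differed from one another in footprints. Their mean RNA in KO ran from 5.73 to 10.4 RPKM, and 5 of 7 had footprint reads in both KO libraries. Oasl2, an oligoadenylate synthetase-like protein, had RNA of 0.730 and 0.959 RPKM in WT and 9.46 and 11.3 RPKM in KO, and footprints of 2.98 and 2.0 RPKM in WT and 19.8 and 38.2 RPKM in KO. Ifit1, which binds foreign RNA ends and whose promoter is shown above, had RNA of 0.177 and 0.373 RPKM in WT and 9.67 and 10.7 RPKM in KO, with 3 and 2 footprint reads in WT and 6 and 7 in KO. Ifit3 had almost the same RNA in KO, 11 and 9.65 RPKM, but 0 and 1 footprint reads there. Among genes of the table, Ifit3b and Ifit1bl1 lie between it and Ifit1 on the chromosome. Ifitm1, which restricts virus entry, had 0 reads in WT and 3 and 4 in KO. H2-Q7, a class Ib MHC molecule, overlapped between groups, with footprints of 3.29 and 13.2 RPKM in WT and 10.6 and 7.03 RPKM in KO. Tgtp2, an interferon-induced GTPase, had none in any library.

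A wider list of 63 interferon-stimulated genes was drawn up after the values were seen, so its counts only describe. Of its 59 genes in the table, 55 entered the RNA fit, where 51 were called higher and 0 lower, beside the background of 32.2%. The 51 include the 7 members on the list, whose calls the choice of the genes required. In footprints 35 were fitted and 0 were called in either direction, with a median log2 difference of 0.32 against -0.134 for all genes. RNA of the list summed to 2560 and 2570 RPKM in WT and 5620 and 5830 RPKM in KO, and 7 of its genes met the thresholds.

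A run of neighbours on the X chromosome stood out by position. Gprasp2, Bhlhb9, Arxes2, Bex2, Bex4 and Tceal8 lie along the chromosome in that order. Of the genes in the table, only Arxes1 and Nxf3 lie between them, with KO means of 3.98 and 2.34 RPKM of RNA. In all, 7 of the 89 members (7.87%) were X-linked, against 2.84% of the 12194 genes in the RNA fit. BEX and TCEAL genes encode small intracellular proteins best known from neurons, and GPRASP proteins sort receptors. Bex2 had RNA of 0 and 0.0610 RPKM in WT and 25.7 RPKM in each KO library. Arxes2 had 0.0341 and 0 RPKM in WT and 15.3 and 13.8 RPKM in KO, and Gprasp2 had 0.0115 and 0 RPKM in WT and 12.3 and 11.6 RPKM in KO. Bex4 reached 8.56 and 6.59 RPKM, Tceal8 8.85 and 9.32 RPKM and Bhlhb9 6.72 and 5.61 RPKM in KO. Gprasp2 and Bhlhb9 overlap in the annotation, so reads in the shared stretch may count for either.

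Relatives outside the thresholds were also examined, in a list of 17 X-linked BEX, TCEAL, ARMCX, GPRASP and ARXES genes chosen after the values were seen. Of the 16 in the RNA fit, 14 were called higher and 0 lower, beside the background of 32.2%. The 14 include the 6 members, whose calls the choice of the genes required, so the count is not one of relatives alone. Bex3 and Tceal9 were already at 22.9 to 25.3 and 44.2 to 47.6 RPKM in WT and reached 99.5 to 105 and 109 to 115 RPKM in KO. Armcx3 and Gprasp1 did not pass, with log2 differences of 0.26 and 0.15. Most of the 6 members had few footprint reads. Gprasp2 had no read in WT and 13 and 16 in KO and was called higher. Bhlhb9 had 0 and 2 reads in WT and 6 and 4 in KO, and Tceal8 had 1 and 4 in WT and 3 and 5 in KO. Bex2, Bex4 and Arxes2 had 1 read each, in KO replicate 1 alone.

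**Figure D3:**
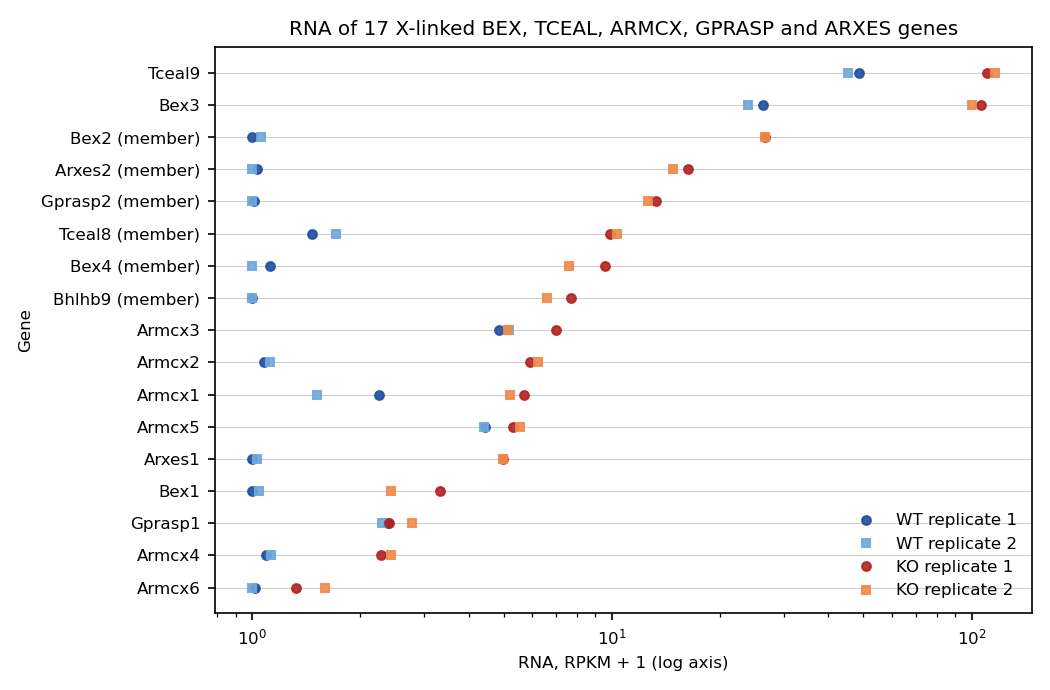
RNA (RPKM + 1, log axis) of 17 X-linked BEX, TCEAL, ARMCX, GPRASP and ARXES genes in each library, with members marked. The 6 members are near the floor in WT and at 6 or more in KO, as the thresholds required, while Bex3 and Tceal9 are present in both groups.

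Other members also lay together. Including that run, 14 of the 89 had another member near them on the chromosome, with at most 3 genes of the table between. The other cases were Rnase10 with Rnase12, Ifit3 with Ifit1, B230217C12Rik with Cacnb1, and Bcas1 with Bcas1os2. No share over other genes was computed for such nearness, so the count is only a description. Bcas1, a myelin-associated protein, and the long non-coding Bcas1os2 overlap, and since the sources used here do not say whether strand was counted, their reads cannot be told apart. Bcas1os2 had RNA of 0.178 and 0.0469 RPKM in WT and 28.3 and 28.1 RPKM in KO, and Bcas1 had 9.87 and 8.99 RPKM in KO.

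Members without a coding sequence could not be judged by footprints, because the table gives footprints almost only to coding genes. Of 1496 long non-coding, micro-, small nucleolar and small nuclear RNA genes in it, 11 had any footprint value. Of the 18 members that RefSeq does not name protein-coding, 16 had no footprint read. The V segment Ighv1-23 had 1 read, in KO replicate 1, and B230217C12Rik had 1 in each KO library and 1 in WT replicate 1. Ighv1-23 had RNA of 0 in WT and 22.4 and 25.1 RPKM in KO, and Ighv1-30, its pseudogene relative, 9.96 and 6.56 RPKM in KO. V segments are near-identical to one another, so their reads are uncertain.

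Mir7656 is the one microRNA gene among the members. Its mature sequences in RefSeq are given with the seed, bases 2 to 8, in capitals.
mmu-miR-7656-5p: uGUGGGAUcagauagccuguua
mmu-miR-7656-3p: aCAGGCUGucugaucccacggu
The libraries were not made from mature microRNAs, and the row counts reads over the hairpin, with 1 and 0 input reads in WT and 17 and 12 in KO. The hairpin lies inside Slc9a9, a sodium/proton exchanger gene that had RNA of 2.58 and 3.02 RPKM in WT and 8.70 and 8.58 RPKM in KO, so hairpin and host transcript cannot be told apart. The same holds for Snord34 inside the ribosomal protein gene Rpl13a, with 8 and 6 input reads in KO.

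TE could be described in KO, where the members had RNA. In WT it was the ratio of values near the floor and has little meaning. The median TE of the 71 coding members, over both KO libraries, was 1.42, against 1.66 for 6402 other coding genes with input of at least 6, a gap of -0.23 in log2. In KO replicate 1 the medians were 1.24 and 1.57, and in KO replicate 2 they were 1.89 and 1.77, so the order of members and other genes changed with the library. TE was above 1 in both KO libraries for 36 of 71 members (50.7%) and for 58.7% of the other genes. No footprint read in KO was seen for 5.63% of the members and 2.41% of the others, and the members' median RNA in KO was lower, at 10.2 RPKM against 17.5 RPKM. A TE fit of KO against WT called 0 genes of those fitted, members included, with 831 genes at an unadjusted p under 0.05. Without KO replicate 1 that fit called 149 genes and without KO replicate 2 it called 700.

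**Figure D4:**
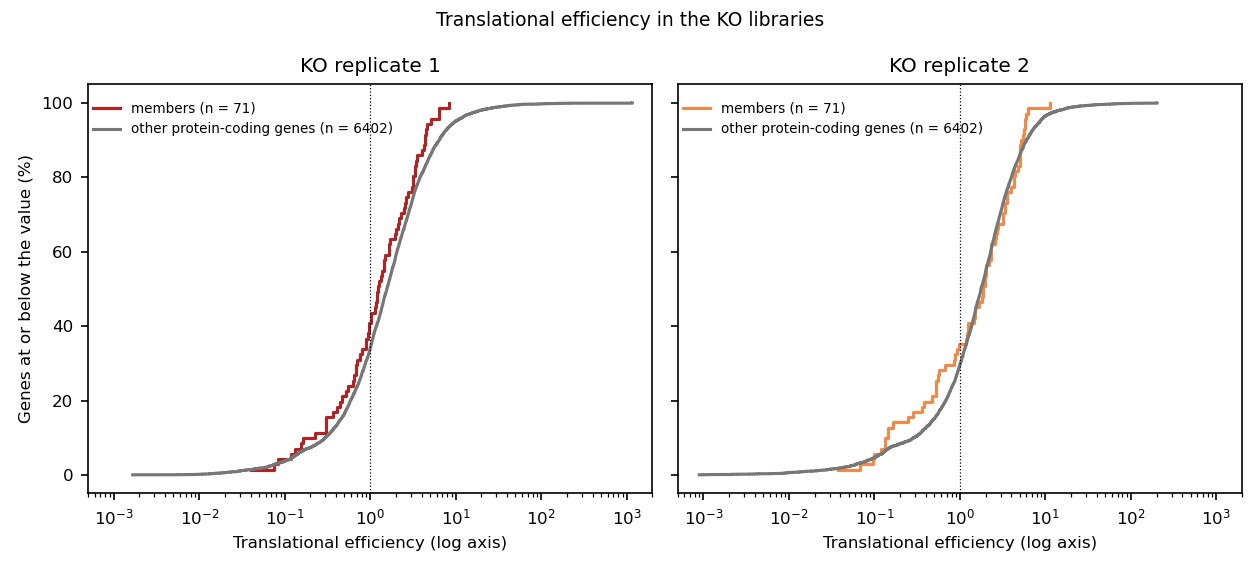
Cumulative share of genes (%) by translational efficiency (log axis) in KO replicate 1 and KO replicate 2, for the 71 coding members and 6402 other coding genes with input RNA of at least 6 in both KO libraries. The 2 curves run close together, with the members' median at 1.24 and 1.89 and that of the other genes at 1.57 and 1.77.

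Among the members themselves TE spanned a wide range. In KO replicate 1 it ran from 0.0404 to 8.28 and in KO replicate 2 from 0.0375 to 11.3, with the lowest values set by genes without a footprint read, whose TE is 1 over the input value. Of the genes with reads in both KO libraries, Rbp4 had the lowest TE, 0.0745 and 0.0971. Emid1 (0.307 and 0.249), Adgrg5, an adhesion receptor (0.302 and 0.533), Ggt7 (0.469 and 0.362) and Bcas1 (0.225 and 0.869) followed. At the other end were Nrgn, a neuronal calmodulin-binding protein (8.28 and 11.3), Nedd4 (6.32 and 5.00), Adora3 (6.42 and 4.79), Angpt1 (4.35 and 6.30) and Ednra (4.33 and 5.75). Nrgn rests on 3 and 4 footprint reads, whereas Nedd4 rests on 101 and 57. The member with the most RNA, Clec2m, had a TE of 0.639 and 0.520, and Frzb had 3.15 and 5.08.

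**Figure D5:**
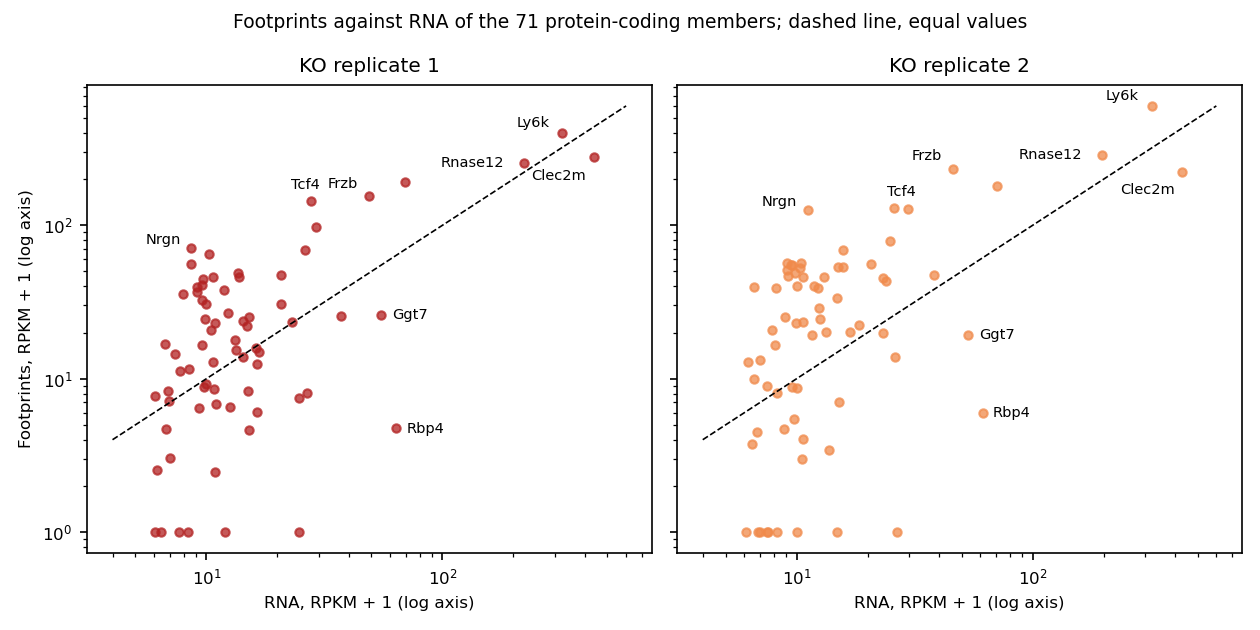
Footprints against RNA (both RPKM + 1, log axes) of the 71 coding members in KO replicate 1 and KO replicate 2, with a dashed line where both are equal, that is, TE of 1. Rbp4 and Ggt7 lie below the line in both libraries and Frzb, Tcf4 and Nrgn above it.

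Markers of other cell types moved in the same comparison, and their part in the members' difference was not tested. The members held 1 of 10 stem and progenitor markers in the table, Angpt1, and 1 of 5 megakaryocyte markers, Itga2b. They held none from the lists for erythroid cells, T and NK cells, B cells, macrophages, neutrophils or stroma. None came from the mast cell and basophil or eosinophil lists either. Of those lists, Cpa3, Prss34, Prg3 and Epx met the thresholds and were left out by name, so the rule set this absence. Over all genes in the RNA fit, 32.2% were called higher and 21.1% lower. The marker counts here and in the next paragraph stand beside these shares. They include Angpt1, Cpa3 and Prss34, which met the thresholds and so had to be called higher. Of the 10 stem and progenitor markers, 8 were called higher in RNA and 0 lower. Their summed RNA without Angpt1 and Gata2 was 60.7 and 63.8 RPKM in WT and 140 and 132 RPKM in KO. Of 8 mast cell and basophil markers fitted, 7 were called higher and 0 lower, and their sum went from 38.0 and 35.0 RPKM to 314 and 304 RPKM, most of it Cpa3. Without the genes left out by name the sums were 35.9 and 32.8 RPKM and 75.7 and 74.3 RPKM. Eosinophil markers summed to 64.1 and 64.3 RPKM in WT and 352 and 346 RPKM in KO, and without Prg2, Prg3 and Epx to 58.8, 57.8, 66.3 and 73.3 RPKM. Apart from Itga2b, megakaryocyte markers stayed low, with sums of 1.84 and 2.39 RPKM in WT and 3.88 and 5.93 RPKM in KO.

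Erythroid markers summed to 76.6 and 67.8 RPKM in WT and 344 and 421 RPKM in KO, with 5 of 5 fitted called higher, while Klf1 and Slc4a1 stayed under 1 RPKM in all libraries. T and NK cell markers summed to 21.1 and 20.7 RPKM in WT and 444 and 375 RPKM in KO, with 6 of 6 fitted called higher. Of those sums Nkg7 alone made 426 and 356 RPKM in KO, and the T cell receptor subunits Cd3d, Cd3e and Cd3g stayed under 1 RPKM in all libraries. Neutrophil markers, the dominant RNAs of both groups, summed to 20000 and 19100 RPKM in WT and 13300 and 12800 RPKM in KO, with 3 of 12 called higher and 6 lower. Of 4 stromal and endothelial markers fitted, 3 were called higher and 1 lower, with sums of 18.8 and 17.8 RPKM against 76.4 and 83.4 RPKM. B and plasma cell markers (2 of 5 higher, 1 lower) and macrophage and dendritic cell markers (5 of 9 higher, 4 lower) summed to less in KO than in WT.

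Relatives of single members did not all move with them. The list counts below stand beside a background of 32.2% of genes called higher in RNA and 21.1% called lower. Members are counted too, Frzb in the Wnt list, Clec2m and Klra1 among the lectins and Epha7 in axon guidance. The choice of the genes required their calls. In a Wnt pathway list of 56 genes, 12 were in the table and 7 in the RNA fit, with 4 called higher and 2 lower, and Frzb made up most of the list's RNA in KO. Without Frzb the list summed to 10.9 and 11.2 RPKM in WT and 14.1 and 14.0 RPKM in KO. Of the C-type lectins of the natural killer complex, 9 were fitted, with 5 called higher and 2 lower. Clec2i, a close relative of Clec2m, had RNA of 14.2 and 14.6 RPKM in WT and 16.7 and 12.8 RPKM in KO, so its groups overlapped, and Clec7a, the beta-glucan receptor Dectin-1, fell by 1.90 on the log2 scale. Of the axon guidance list 3 of 10 were called higher, a share near the background, and 3 lower, with Epha7 higher and Epha2, another ephrin receptor, at 5.40 and 6.28 RPKM in WT and 0.267 and 0.540 RPKM in KO. No extracellular matrix gene of the list used here was a member. Of the 10 fitted, 8 were called lower and 2 higher, with a median of -1.07. HOX genes, the partners of Pbx3, had 2 of 6 called higher and 2 lower, and a median log2 difference of 0.06.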

How the data were processed

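Ribosome footprints and input RNA were measured in 4 libraries of mouse leukaemia stem cells, grouped as WT or KO by their titles. Per the labels' protocols, micrococcal nuclease was used for digestion and fragments of 25 to 40 nucleotides were taken. The submitters' processing notes list the tools CASAVA, HISAT2 2.1.0, featureCounts and DESeq2 without saying what each did, and name the build hg38, although the symbols are mouse. The authors deposited 1 table. Its footprint values, as deposited, behave as RPKM, that is, reads divided by coding length and by the library's assigned reads, with 1 added by the authors. The deposited TE is a ratio that the authors formed from footprints and input. Both units were read from the values, since the labels do not state them. The p-value column, headed as adjusted per the file headers, was not used.

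Input was recomputed as footprint value over TE. The thresholds, the members and the lists were chosen with earlier results of these data known. The steps between RPKM values gave back whole reads (for 100% of 10536 genes with footprints in at least 2 libraries), and on simulated data 94.0% of genes came back exactly. The design allowed for counts, but the table holds RPKM, so limma 3.58.1 (R 4.3.3) with a mean-variance trend was fitted to log2(RPKM + 1), a scale that understates changes of low genes. Group was the only term, tests were two-sided, and p-values were adjusted by Benjamini-Hochberg over all genes fitted, with a threshold of 0.05. Footprint and TE fits took genes with at least 20 CPM in 2 libraries, and the RNA fit took genes with input of at least 2 in 2 libraries. Differences are given with limma's SE, ratios of pooled reads with exact 95% intervals for counting error only. Named genes were the members with the 10 highest KO RNA values and the 10 largest footprint differences, the 5 highest and 5 lowest TE, those without KO footprints and those next to the thresholds. A few genes that these rules name are not reported here. Further members were named to fill their functional group after their values were seen. Python 3.11.15 was used for the rest. RefSeq (GRCm38.p6) names matched 85 of 89 members, and no coordinates of the authors' build were used. Same-numbered libraries did not deviate together (correlations of 0.0226 for footprints, -0.14 for RNA and 0.00832 for TE), and the main fits did not pair them. These correlations cannot show whether the libraries were prepared in pairs. Alternatives covered the thresholds, pseudocount, filter, scaling, tool, replicate block and single libraries.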

Additional observations from a re-analysis of the deposited data

How the results depend on the processing

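The number of members followed the thresholds. It was 54 with WT input below 1.5, 144 below 3, 158 with KO input of at least 4 and 44 of at least 10, and 97 to 106 when 1 library was left out. The members' median log2 RNA difference was 3.88 at a pseudocount of 0.5 RPKM and 3.12 to 3.19 without single libraries, and all genes called higher in RNA numbered 2140 to 3447 without single libraries. The median log2 footprint difference was 5.33 with limma-voom on recovered reads, 4.90 at a pseudocount of 0.5 RPKM, 3.02 at 5 RPKM and 4.29 to 4.61 without single libraries. Members called higher in footprints numbered 8 (all genes 17) at 10 CPM, 0 (all genes 0, with 1667 at an unadjusted p under 0.05) without a filter, 7 (all genes 16, and 6 of the 15) with a replicate block, and 0 to 25 (all genes 0 to 458) without single libraries, against 15 of 38. Other footprint settings gave 14 to 22, and limma-voom called 13 of the 15 among its 15. The median log2 TE difference of the 27 members in the TE fit was 0.85, and 0.40 to 0.93 without single libraries, the lowest without KO replicate 2. Of these 27, 25 passed the filter through KO footprints alone. Their WT TE is a ratio of values near the floor, so this difference has little meaning. The gap in KO TE between members and other genes was -0.54 over all biotypes, -0.34 in KO replicate 1 and 0.10 in KO replicate 2, where its sign turned. The cause was not tested. The biotype setting, a crossed replicate block for RNA (89 members called) and a narrower RNA range (-0.38) were added after seeing the data. For the 22 named members with a footprint difference other than 0, the sign was kept in 130 of 132 alternatives. It turned for Rbp4 without WT replicate 2 (1.06), and Nmur1 was at 0 without WT replicate 1. Members named for their large footprint differences had little room for the sign to turn. edgeR was not run, since the table holds RPKM. With 274183 footprint reads in the shallowest library, members of low RNA had few reads to compare.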
